A study of Sus scrofa with 8 samples.

Results

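The acute phase plasma proteins are secreted by the liver, and their mRNAs were measured here in 2 young and 2 old pig livers. The genes were chosen by symbol, and 8 of the 10 chosen symbols had an Ensembl identifier in the table of 21607 mRNAs, namely ALB, CRP, ITIH3, ITIH4, LBP, HPX, CP and TTR. HP and ORM1 had none and are not analysed here. The livers came from healthy female Yana pigs, a Chinese native breed, at 180 days of age in the young group and 8 years in the old group. Each sow gave 1 rRNA-depleted RNA library, so every library is a separate and unrelated animal. All sows were fasted overnight before slaughter and received no treatment. The old sows had farrowed for many years and the young sows had not, so age and parity cannot be told apart in these animals.

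When tissue is injured or infected, interleukin-6 and interleukin-1 reach the hepatocyte, and the transcription factors STAT3, C/EBP and NF-kB raise the genes of the positive acute phase proteins. C-reactive protein (CRP) binds phosphocholine on bacteria and dying cells, and ITIH4 is the protein known in pigs as the major acute phase protein. Negative acute phase proteins, among them albumin (ALB) and transthyretin (TTR), are made in smaller amounts during the response. In a resting liver some of these genes, ALB above all, are also among the most heavily transcribed, because their products make up much of the protein in plasma.

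The values are CPM, read counts scaled to the same total in every library, with no correction for gene length, so a gene is compared here with itself between livers and not with another gene. The listed mRNAs and lncRNAs held 51494798 and 52207649 reads among young sows and 28324675 and 31630060 reads among old sows. They summed to 560664 and 603161 CPM among young sows and to 460267 and 440333 CPM among old sows, so less of the scaling total was listed in both old livers, and levels are also given as shares of the listed reads or under other scalings. All 8 genes were above 0 in all 4 livers, with at least 854 reads in a library, so counting error was small beside most differences between sows. An exception was LBP, where the 95% Poisson interval of young replicate 1 overlapped those of young replicate 2 and old replicate 1. The smallest value, for CRP in old replicate 2, was 11.9 CPM with an exact 95% Poisson interval of 11.1 to 12.7 CPM. The interval covers counting error only, since PCR reads are not independent molecules.

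Fold changes were fitted with limma on log2(CPM + 1) over the 16898 mRNAs above 0 in at least 2 of the 4 livers. A call needed an adjusted p-value under 0.05 and an absolute log2 fold change above 1. None of the 8 genes was called, and neither was any other mRNA (0% called, smallest adjusted p = 0.213, limma). Unadjusted p-values under 0.05 were found for 2654 mRNAs, 15.7% of those tested, and for 2 of the 8 genes. With 2 livers against 2, an exact permutation test of a single gene cannot go below p = 0.333.

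**Figure D1:**
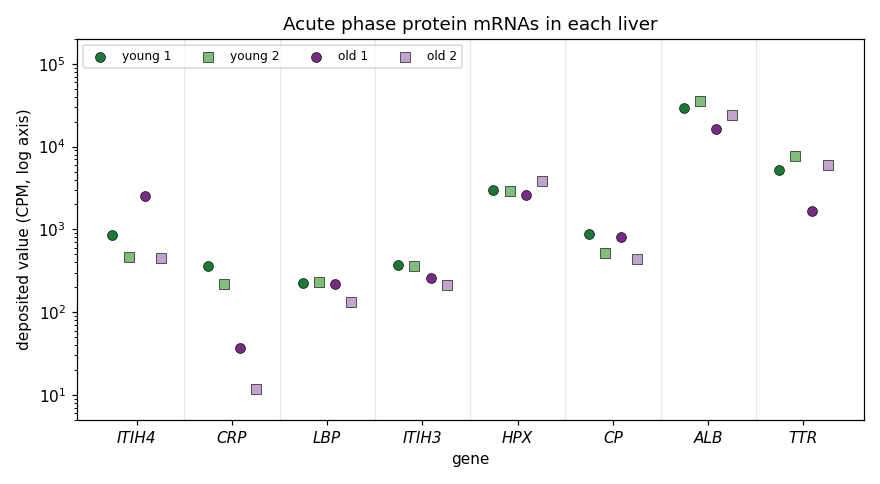
CPM of the 8 genes in each liver on a log axis, with circles for replicate 1 and squares for replicate 2 of each age group, and no error bars because each point is 1 animal. The CRP values of the old livers (36.7 and 11.9) lie far under those of the young livers (360.3 and 217), and the old replicate 1 points of ITIH4 and TTR stand apart from the other 3 livers.

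CRP (ENSSSCG00000006403) differed most between the age groups. It was at 360.3 CPM in young replicate 1 and 217 CPM in young replicate 2, against 36.7 CPM in old replicate 1 and 11.9 CPM in old replicate 2. Both old livers lay below both young livers, and the means of 289 ± 101 and 24.3 ± 17.6 CPM (SD, n = 2 each) differed 11.9-fold. Within a group the livers differed 1.66-fold when young and 3.09-fold when old. The log2 fold change of CRP was -3.67 (standard error 0.68, 95% interval -5.73 to -1.61, unadjusted p = 0.00993, adjusted p = 0.228, limma), and only 4 of the 16898 mRNAs had a lower one. It stayed between -4.45 and -2.90 when any 1 liver was left out.

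The call for CRP depended on the test. The exact test of edgeR, the test used in the study, was run on whole reads recovered from the values and called CRP lower in old livers (log2 fold change -3.36, adjusted p = 0.00191). It was the only one of the 8 genes that this test called, where 2.36% of all mRNAs were called, 0.320% lower and 2.04% higher. By the same test, the log2 fold change of CRP stayed between -4.39 and -2.77 when any 1 liver was left out. Those fits have a single animal in 1 group and take the spread from the other group. DESeq2 also called CRP alone of the 8 genes (adjusted p = 5.42e-05), among 5.65% of all mRNAs, 1.26% lower and 4.38% higher. The quasi-likelihood test of edgeR did not call CRP (adjusted p = 0.276). That test called 0 mRNAs and had an unadjusted p-value under 0.05 for 14.6% of them. RefSeq lists 2 neighbouring pig genes under the symbol CRP in Sscrofa11.1 while 1 identifier carries it here, so reads may have been divided between copies if these are near-identical.

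ITIH4 (ENSSSCG00000011453), the pig major acute phase protein, was high in a single old liver. Its values were 864 and 462 CPM among young sows, 2526 CPM in old replicate 1 and 451 CPM in old replicate 2. Old replicate 1 was at 3.81 times the young mean, and old replicate 2 was below both young livers, so the groups overlapped. The log2 fold change of ITIH4 was 0.76 (standard error 1.04, 95% interval -2.41 to 3.92, adjusted p = 0.784, limma). It was 1.997 without old replicate 2 and -0.49 without old replicate 1, and thus its sign rested on 1 liver. Without old replicate 2, the exact test of edgeR called ITIH4 higher in the remaining old liver (adjusted p = 0.0341), a call about 1 animal.

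The LPS-binding protein gene LBP (ENSSSCG00000028758), whose product hands bacterial lipopolysaccharide to CD14, was nearly equal in 3 livers. It was at 222 and 228 CPM among young sows, 216 CPM in old replicate 1 and 134 CPM in old replicate 2. The old livers were both lower than the young livers, one of them by very little. The order turned as shares of the listed reads, at 0.0397% and 0.0379% among young sows, 0.0470% in old replicate 1 and 0.0304% in old replicate 2. The log2 fold change was -0.40 (95% interval -1.29 to 0.48, adjusted p = 0.590, limma), and without old replicate 2 it was -0.06 with limma and 0.14 with the exact test of edgeR.

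ITIH3 (ENSSSCG00000011451), a heavy chain of the inter-alpha-trypsin inhibitors that coat hyaluronan, was lower in both old livers. It was at 371 and 359 CPM among young sows and at 258 and 216 CPM among old sows. The difference was 1.54-fold on the means of 365 ± 8.82 and 237 ± 29.6 CPM (SD, n = 2 each). The log2 fold change was -0.63 (standard error 0.15, 95% interval -1.08 to -0.18, unadjusted p = 0.0200, adjusted p = 0.254, limma). It ranged from -0.76 to -0.50 with 1 liver left out, and was -0.27 when values were scaled to the reads outside the 8 genes.

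Hemopexin (HPX, ENSSSCG00000014626) binds free heme, and ceruloplasmin (CP, ENSSSCG00000011700) carries copper and oxidises iron. HPX was at 3027 and 2939 CPM among young sows and at 2609 and 3857 CPM among old sows. The old livers enclosed the young ones, and the log2 fold change of 0.09 had a 95% interval from -0.66 to 0.84 (adjusted p = 0.904, limma). CP was at 876 and 515 CPM among young sows and at 819 and 438 CPM among old sows. Each age group had 1 high and 1 low liver for CP, with a log2 fold change of -0.17 (95% interval -1.61 to 1.28, adjusted p = 0.910, limma) whose sign turned under TMM scaling (0.03), DESeq2 size factors (0.01) and without old replicate 2 (0.29). The sign for HPX turned without old replicate 2 (-0.19).

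ALB (ENSSSCG00000008948), the carrier protein that makes up most of plasma protein, was at 29468 and 35205 CPM among young sows and at 16534 and 23978 CPM among old sows. Both old livers were lower, 1.60-fold on the means of 32337 ± 4057 and 20256 ± 5264 CPM (SD, n = 2 each). The log2 fold change was -0.69 (standard error 0.26, 95% interval -1.47 to 0.08, adjusted p = 0.352, limma). It lay between -0.96 and -0.43 with 1 liver left out. Of the listed reads, ALB took 5.26% and 5.84% among young sows and 3.59% and 5.45% among old sows, and on that basis old replicate 2 fell between the young livers.

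TTR (ENSSSCG00000023686), which carries thyroid hormone and the retinol-binding protein, was low in old replicate 1 alone. It was at 5211 and 7797 CPM among young sows, 1658 CPM in old replicate 1 and 5921 CPM in old replicate 2. Old replicate 1 was 3.92-fold below the young mean and old replicate 2 lay between the young livers. The log2 fold change was -1.02 (standard error 0.76, 95% interval -3.34 to 1.29, adjusted p = 0.602, limma). It was -1.94 without old replicate 2 and -0.11 without old replicate 1. In bulk tissue, fewer hepatocytes and less RNA per hepatocyte cannot be told apart from the level of a gene alone. Of 12 hepatocyte markers, 5 were lower in both old livers, 1 was higher and 6 overlapped. Over all mRNAs tested, 25.0% were lower and 24.4% higher in both old livers. The markers had a median log2 fold change of -0.47, against -0.52 over the 8 genes. Among these markers, FGB, TF and AHSG are themselves acute phase or plasma protein genes. Whether hepatocyte content played a part was not tested.

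**Figure D2:**
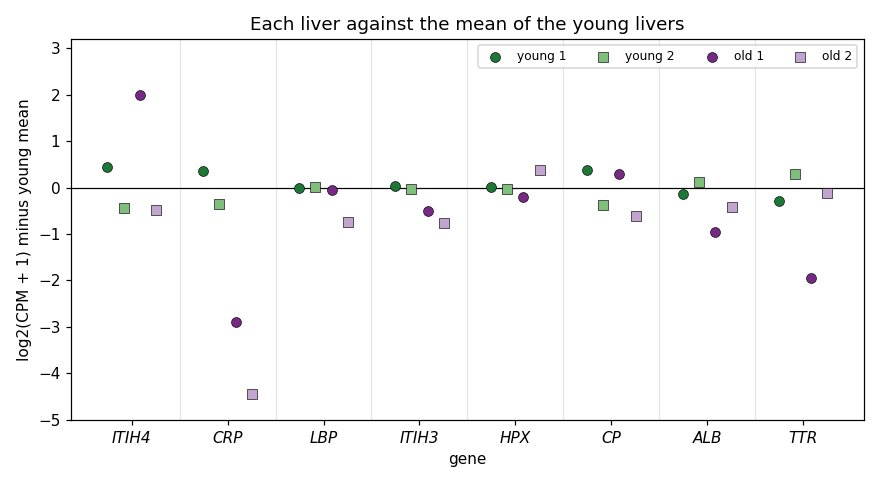
Difference of log2(CPM + 1) in each liver from the mean of the 2 young livers, for the 8 genes, with 1 point per animal and the zero line at the young mean. CRP is the only gene of the 8 where both old livers are more than 1 unit from the young mean (-2.90 and -4.45), while ITIH4 (1.997) and TTR (-1.94) are so in old replicate 1 alone.

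Over the 8 genes, the log2 fold change was below 0 for 6 and above 0 for ITIH4 and HPX, with a median of -0.52 against -0.02 over all mRNAs tested, of which 52.9% were below 0. The old livers were both below the young livers for 4 genes, CRP, ITIH3, LBP and ALB, and both above for none, where 49.3% of all mRNAs tested had no overlap, 25.0% below and 24.4% above. As shares of the listed reads, a basis added after seeing the data, both old livers lay below the young livers for 2 genes, CRP and ITIH3, and above for 1, HPX, where 14.0% of all mRNAs tested lay below and 33.7% above. Part of the lower median moved with the scaling. Scaled to the reads outside the 8 genes, the median was -0.16 for the 8 genes and 0.13 for all mRNAs, and with TMM scaling it was -0.32 and 0.04. CP was above 0 under both scalings, which left 5 of the 8 genes below 0.

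Summed over the 8 genes, the level was 40400 and 47723 CPM among young sows and 24657 and 35006 CPM among old sows. The 8 genes took 7.21% and 7.91% of the listed reads among young sows, 5.36% in old replicate 1 and 7.95% in old replicate 2. Most of this sum was ALB. Without it the sums were 10932 and 12518 CPM among young sows and 8123 and 11028 CPM among old sows, where old replicate 2 was inside the young range.

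**Figure D3:**
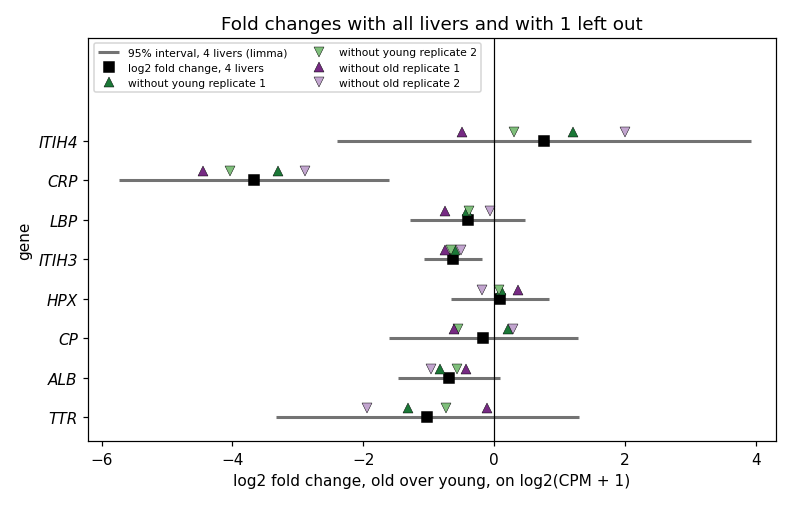
Log2 fold change of old over young livers for the 8 genes, with the 95% interval of limma on 4 livers as a bar and the value after leaving out each liver as triangles. The triangles of CRP stay between -4.45 and -2.90, while those of ITIH4 (-0.49 to 1.997), HPX and CP lie on both sides of 0.

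Ratios of 2 genes within a library do not depend on the library total, and they were computed after the values had been seen, as a description. For every 1000 reads of ALB there were 12.2 and 6.17 reads of CRP among young sows and 2.22 and 0.496 among old sows. The old livers stayed below the young livers by this measure. The ratio of TTR to ALB was 0.177 and 0.221 among young sows, 0.1003 in old replicate 1 and 0.247 in old replicate 2, so TTR was low relative to ALB in old replicate 1 alone. The ratio of HPX to ALB was 0.103 and 0.0835 among young sows and 0.158 and 0.161 among old sows. HPX was thus higher relative to ALB in both old livers, although its own values overlapped.

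By the distance over the 8 genes on log2(CPM + 1), young replicates 1 and 2 were 1.53 apart and old replicates 1 and 2 were 3.73 apart. Old replicate 2 was 5.14 and 4.297 from young replicates 1 and 2, farther than from old replicate 1. With CRP left out, old replicate 2 was 1.34 from young replicate 2 and 1.81 from young replicate 1, against 3.39 from old replicate 1. For the 7 other genes, old replicate 2 therefore lay nearer to either young liver than to old replicate 1, the opposite of the order with CRP. These distances were not planned. CRP is the gene that differed most between the groups, so a move towards the young livers follows from leaving it out. Old replicate 1 was 2.48 and 3.59 from the young livers.

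The inter-alpha-trypsin inhibitor family shows how far relatives parted. ITIH1, ITIH3 and ITIH4 follow each other in the RefSeq order of Sscrofa11.1, whereas ITIH2 lies elsewhere, and AMBP encodes bikunin, the light chain that the heavy chains ITIH1, ITIH2 and ITIH3 are joined to. ITIH1 was at 711 and 771 CPM among young sows, 398 CPM in old replicate 1 and 673 CPM in old replicate 2. ITIH2 was at 270.2 and 303 CPM among young sows, 89.9 CPM in old replicate 1 and 313 CPM in old replicate 2. In old replicate 1, ITIH1, ITIH2 and ITIH3 were all below both young livers while ITIH4 was above both. The ratio of ITIH4 to ITIH3 was 2.33 and 1.29 among young sows, 9.81 in old replicate 1 and 2.09 in old replicate 2. AMBP was at 1409 and 1605 CPM among young sows and at 1180 and 2247 CPM among old sows. None of ITIH1, ITIH2 and AMBP passed the test (adjusted p = 0.534, 0.678 and 0.927, limma).

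**Figure D4:**
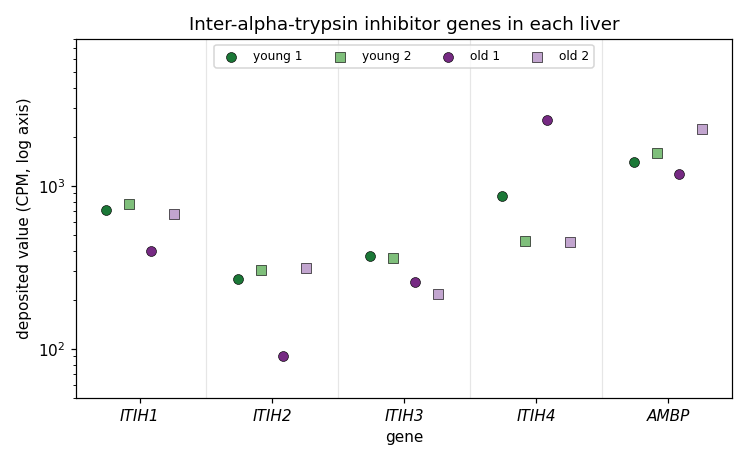
CPM of 4 inter-alpha-trypsin inhibitor heavy chain genes and of AMBP in each liver on a log axis, 1 point per animal. In old replicate 1 the points of ITIH1, ITIH2 and ITIH3 are the lowest or next to lowest of their gene, and that of ITIH4 (2526) is the highest.

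Of 24 other acute phase genes, 11 had an identifier, among them the fibrinogen chains FGB and FGG, the complement genes C3 and CFB and the protease inhibitor A2M. None was called. Of the 11, 7 were below 0 and 4 above, with a median log2 fold change of -0.18. At an unadjusted p-value under 0.05 in limma, where 8.93% of all mRNAs were lower and 6.78% higher, A2M and C4BPA were lower and LCN2 was higher. C4BPA, a chain of the complement inhibitor C4b-binding protein, was at 86.6 and 65.1 CPM among young sows and at 28.7 and 40.4 CPM among old sows (log2 fold change -1.12, adjusted p = 0.255, limma). A2M was at 674 and 602 CPM against 381 and 332 CPM (-0.84, adjusted p = 0.223, limma). LCN2, a siderophore-binding protein, was at 0.719 and 0.393 CPM against 1.71 and 1.99 CPM (0.88, adjusted p = 0.230, limma). A2M and LCN2 fell outside the rule for naming genes and are given because so few genes reached that p-value. In old replicate 1, 5 of the 11 genes were above both young livers and 5 were below both. Over all mRNAs tested, 35.5% were above and 35.4% below. C3 and VNN1 were lowest in that liver. FGB and NNMT, picked out after their values were seen, were highest in old replicate 1, as ITIH4 was. FGB was at 7407 and 4366 CPM among young sows, 10375 CPM in old replicate 1 and 3494 CPM in old replicate 2. NNMT, which methylates nicotinamide, was at 303 and 61.5 CPM among young sows, 892 CPM in old replicate 1 and 158 CPM in old replicate 2.

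Of 20 further plasma protein genes of the liver, 18 had an identifier, and 15 of them were below 0, with a median log2 fold change of -0.70. The old livers were both below the young livers for 8 of the 18 and both above for none, where 25.0% and 24.4% of all mRNAs tested did so. In old replicate 1, 16 of the 18 were below both young livers, where 35.4% of all mRNAs were, and in old replicate 2 it was 9 of 18, where 35.5% were. APOM, an apolipoprotein of HDL, had the most negative fold change of the 4 genes named by rule, at 123 and 221 CPM among young sows and at 47.7 and 58.7 CPM among old sows (-1.62, adjusted p = 0.247, limma). PON1, an HDL-bound lactonase, was at 287 and 239 CPM against 66.3 and 131 CPM (-1.48, adjusted p = 0.274, limma). AFM, a vitamin E binding relative of albumin whose gene lies near ALB, was at 85.8 and 74.2 CPM against 22.5 and 37.9 CPM (-1.42, adjusted p = 0.247, limma). KNG1, the precursor of bradykinin, was at 372 and 432 CPM against 143 and 242 CPM (-1.10, adjusted p = 0.288, limma). In these 4 genes both old livers lay below both young livers. RBP4, which circulates bound to transthyretin, was at 1063 and 1257 CPM among young sows, 660.0 CPM in old replicate 1 and 1262 CPM in old replicate 2, so that like TTR it was low in old replicate 1 alone. This was not particular to RBP4, since SERPINA6 (5.59 CPM), FETUB (6.7 CPM) and HRG (84.9 CPM) were also low in that liver alone.

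**Figure D5:**
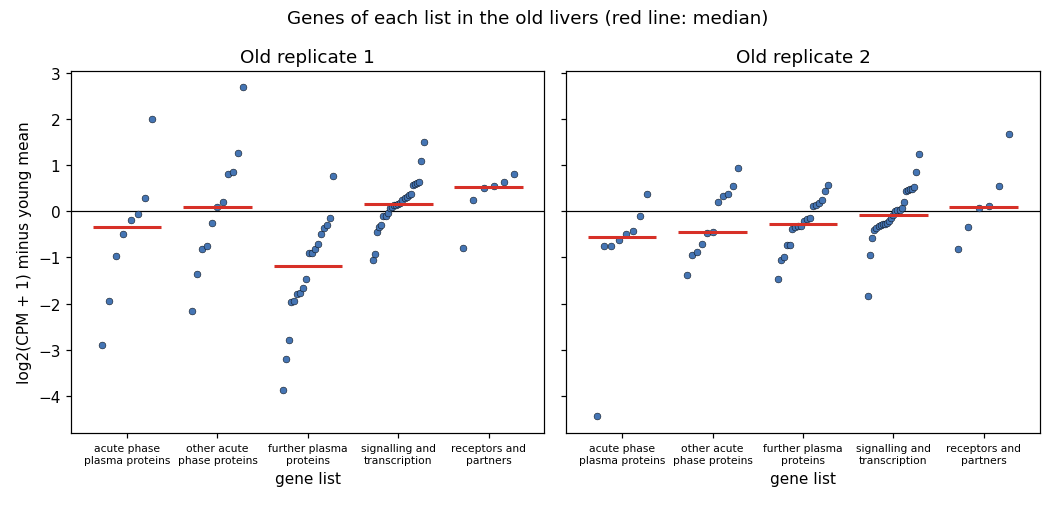
Difference of log2(CPM + 1) from the young mean for each gene of the 5 gene lists, in old replicate 1 and in old replicate 2, with 1 point per gene and the median of the list as a red line. The further plasma proteins lie lower in old replicate 1 (median -1.19) than in old replicate 2 (median -0.26), and the lists of signalling genes and receptors have medians nearer to 0.

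Of 35 signalling and transcription factor genes of the response, 26 had an identifier and 25 passed the filter, as IL6 was listed at 0 in all 4 livers. With 3 reads as the limit, this allows IL6 up to 0.0327 to 0.0487 CPM per library. The 25 genes had a median log2 fold change of 0.09, with 15 above 0 and 10 below, and none was called. IL1R1, the receptor of interleukin-1, was at 56.7 and 49.6 CPM among young sows and at 24.8 and 14.05 CPM among old sows. Both old livers were lower (log2 fold change -1.45, unadjusted p = 0.0184, adjusted p = 0.250, limma). IL1R1 alone of the 25 genes was lower at an unadjusted p-value under 0.05 (limma), where 8.93% of all mRNAs tested were lower. NFKBIA, the inhibitor of NF-kB, was at 8.06 and 8.64 CPM against 13.0 and 15.8 CPM (0.71, adjusted p = 0.242, limma). It was named because it alone of the 25 genes was higher at an unadjusted p-value under 0.05 (limma). Among all mRNAs tested, 6.78% were higher at that p-value. CEBPA, a transcription factor of the hepatocyte, was at 1.45 and 0 CPM against 3.43 and 2.69 CPM (1.37, adjusted p = 0.365, limma). Its fold change was 0.72 without young replicate 2 and 2.01 without young replicate 1, and 2.99 and 0.29 with pseudocounts of 0.1 and 10. The subunits of the interleukin-6 receptor and its signal transducer overlapped between the groups. IL6R was at 7.59 and 9.47 CPM among young sows and at 9.41 and 12.4 CPM among old sows, IL6ST at 21.3 and 17.2 against 20.1 and 9.48, and STAT3 at 39.6 and 24.8 against 35.4 and 32.0. No identifier carried the symbols SOCS3, CEBPB and CEBPD.

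Of 13 receptors and partners of the proteins, 8 had an identifier and 6 were tested. CD14, the macrophage receptor that takes lipopolysaccharide from LBP, was at 27.9 and 27.8 CPM among young sows and at 49.7 and 91.1 CPM among old sows. Both old livers were higher (log2 fold change 1.24, unadjusted p = 0.0341, adjusted p = 0.282, limma), while LBP itself was not. FCGRT, which encodes the receptor that returns albumin to the blood, was at 73.6 and 71.7 CPM against 114 and 106 CPM (0.60, unadjusted p = 0.0112, adjusted p = 0.230, limma). These 2 of the 6 genes tested were the ones higher at an unadjusted p-value under 0.05 (limma), and none was lower. Among all mRNAs tested, 6.78% were higher and 8.93% lower at that p-value. The median of the 6 genes was 0.23. CD163, LRP1 and HMOX1 had no identifier by symbol.

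Markers of hepatocytes and of other cells were summed over each list, and their part in the results was not tested. The 12 hepatocyte markers, all with an identifier, summed to 54188 and 55333 CPM among young sows and to 43198 and 37098 CPM among old sows, and none was at 0. APOC3 alone made up between 64.8% and 74.2% of these sums, and without it they were 15263 and 14265 CPM among young sows and 15221 and 12062 CPM among old sows. Much of that remainder was FGB, an acute phase gene, at 7407 and 4366 CPM among young sows. FGB was at 10375 CPM in old replicate 1, most of the remainder there, and at 3494 CPM in old replicate 2. The marker higher in both old livers was F2, at 406 and 456 CPM against 628 and 562 CPM. Interferon-stimulated genes (12 of 20 with an identifier) stood out in old replicate 1, where ITIH4 was high and TTR low, with 1839 CPM against 49.1 and 63.5 among young sows and 44.7 in old replicate 2. Immediate early genes (8 of 11) summed to 18.9 and 15.1 CPM among young sows and to 112 and 343 CPM among old sows, with MYC at 0 in young replicate 2. Macrophage markers (5 of 10) summed to 217 and 249 CPM among young sows and to 343 and 295 CPM among old sows. Neutrophil markers (5 of 9) reached 0.250 and 0.578 CPM among young sows, with S100A8, MPO and MMP8 at 0, and 8.43 and 2.16 CPM among old sows, with MMP8 at 0 in old replicate 1. Markers of T and NK cells (7 of 10) were at 10.24 and 11.5 against 21.3 and 11.9 CPM, and those of endothelial cells (4 of 8) at 33.9 and 30.4 against 66.2 and 38.4. Erythroid markers (5 of 8) were at 622 and 429 CPM among young sows and at 308 and 407 among old sows, while cholangiocyte markers (4 of 6) were at 9.40 and 11.8 against 7.51 and 19.0. Markers of stellate cells and fibroblasts (6 of 8) were at 17.5 and 36.5 against 12.9 and 48.3 CPM, and skeletal muscle markers (2 of 8) at 0.904 and 0.242 against 0.0810 and 2.16. KLF1 and 1 of the 2 identifiers of GZMA were at 0 in both young livers, and HBM and LUM in young replicate 2, while the other identifier of GZMA was at 3.31 and 3.33 CPM among young sows and at 2.08 and 1.34 CPM among old sows. Of the lists given here, old replicate 1 held the highest sums of the interferon, macrophage, neutrophil, T and NK cell and endothelial lists. Few genes carried some of these sums. C1QA (255 CPM) made up most of the macrophage sum in that liver, while MARCO and CSF1R were highest in old replicate 2. LYVE1 (36.5 CPM) and PECAM1 (23.8 CPM) made up most of the endothelial sum, while KDR was lowest there (2.26 CPM) and STAB1 was highest in old replicate 2.

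Among 389 other genes with a symbol and a mean of at least 50 CPM, the 3 nearest in pattern were found for the members that varied by more than 1 unit of log2(CPM + 1), by the distance of the centred values over the 4 livers. Nearest to ALB were GC, the vitamin D binding protein whose gene is a relative of ALB (distance 0.05), CTSV (0.07) and SORD (0.08). GC was at 1479 and 1737 CPM among young sows and at 857 and 1225 CPM among old sows. Nearest to TTR were MGST3 (0.24), DPYS (0.29) and HSD17B6 (0.34), of which HSD17B6 was at 202 and 219 CPM among young sows, 51.2 CPM in old replicate 1 and 204 CPM in old replicate 2. Nearest to ITIH4 were CD247 (0.28), CNDP2 (0.47) and the chaperone HSPA5 (0.62), which was at 97.2 and 68.8 CPM among young sows, 207 CPM in old replicate 1 and 47.4 CPM in old replicate 2. No candidate came near CRP by this distance, which is not scaled for span and so tends to be larger for genes that vary more. CRP spanned 4.81 units over the 4 livers, against 2.48 for ITIH4, 2.23 for TTR and 1.09 for ALB. The nearest to CRP was CYP1A1, 1.74 away, followed by ND6 (1.98) and ND5 (2.07). CYP1A1 was at 218 and 415 CPM among young sows and 28.3 and 32.2 CPM among old sows.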

How the data were processed

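Liver RNA of 2 young and 2 old sows was sequenced after rRNA depletion. Clean reads had been mapped to the Sscrofa10.2 build (TopHat2 2.0.14), transcripts assembled (StringTie 1.2.3) and values named TPM (Salmon 0.6.0) by the authors. As deposited by the authors, the values are CPM, since 100% of those above 0 lay within 0.001 of a whole multiple of a single step per library, and whole reads were recovered with that step. Symbols were joined by identifier, and 11654 of the 21607 identifiers had one. RefSeq (Sscrofa11.1) was used only for the order of genes. Differential expression was fitted with limma 3.58.1 in R 4.3.3 on log2(CPM + 1), with Benjamini-Hochberg adjustment over 16898 mRNAs. The exact test (common and tagwise dispersion) and quasi-likelihood test of edgeR 4.0.16 and DESeq2 1.42.0 were run on recovered reads, and the fits were tested on simulated counts. Other pseudocounts, filters and scalings, a replicate block and leaving out each library were tried. Python 3.11.15 was used for the summaries.

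The genes and lists were chosen with earlier results of these data known. Named genes were all members, those of each related list with a mean of at least 1, no overlap and an absolute log2 fold change above 1 (at most 4 per direction), chosen receptors, signalling and clearance genes, and the 3 nearest in pattern. Values of miRNAs and circRNAs were not used here. One marker list is not reported here.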

Additional observations from a re-analysis of the deposited data

How the results depend on the processing

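The number of mRNAs called was 0 with limma and moved to 2 with a filter on a mean of at least 1, to 399 with the exact test of edgeR and to 880 with DESeq2. Of the 8 acute phase genes, 0 were called with limma and 1, CRP, with the exact test and with DESeq2. With the exact test and 1 liver left out, an alternative chosen after seeing the data, the log2 fold change of CRP lay between -4.39 and -2.77. Of the related genes, 2 (APOM and CD14) were called by DESeq2 alone. The sign of CP turned with TMM scaling (0.0349), DESeq2 size factors (0.0109), scaling to the reads outside the 8 genes (0.19), the exact test (0.0627), the quasi-likelihood test (0.0627) and DESeq2 (0.0409). With 1 liver left out in limma, log2 fold changes of changing sign ranged from -0.62 to 0.29 for CP, from -0.49 to 1.997 for ITIH4 and from -0.19 to 0.37 for HPX. Those of STAT3 ranged from -0.23 to 0.43 and those of IL6ST from -0.94 to 0.0680. With the exact test, TTR without old replicate 1 (0.0575) and LBP without old replicate 2 (0.141) also turned. The cause was not tested. With a single liver in a group, its spread is taken from the other group. The replicate numbers share no animal, litter or batch in the labels, and the deviations of replicates with the same number correlated at 0.09 across genes. A replicate block called 0 mRNAs and gave CRP an adjusted p-value of 0.344 (limma). The fold changes cannot move under this block, because each group holds 1 library of each replicate number.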
